A study of Mus musculus with 2 samples.

Results

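Photoreceptors and bipolar cells release glutamate at ribbon synapses, and the genes described here are 10 that serve this release: Ctbp2, Rims2, Bsn, Pclo, Cacna1f, Cacna2d4, Cabp4, Slc17a7, Cplx3 and Cplx4. They were chosen by symbol, not by their values, and are 10 of the 32285 genes in the deposited matrices. Droplet-based 3′ scRNA-Seq of whole retina gave 1 library per genotype, so no comparison between genotypes had a replicate and none was tested. The WT library was made from male C57BL/6J retina at an age of 7 months. The ND6 library had the same sex, strain and age and carried the mitochondrial ND6 P25L change (mtDNA 13997G>A) in the whole body, from a line kept by crossing mutant females with WT males. The labels do not say whether a library held the retina of 1 mouse or of several.

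A synaptic ribbon is a protein plate that stands on the presynaptic membrane and holds rows of glutamate-filled vesicles close to clusters of L-type calcium channels. In darkness, photoreceptors are depolarized, the channels stay open and vesicles fuse without pause, and light slows this release. Rods and cones pass the signal to bipolar cells, whose own terminals also carry ribbons, while most amacrine cells release glycine or GABA at synapses without ribbons.

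Cells were barcodes that held more than 400 UMIs (unique molecular identifiers, each standing for 1 captured RNA molecule) and more than 200 detected genes, and in which mtDNA transcripts made up no more than 20% of the UMIs. This left 12529 WT cells with a median of 1878 UMIs and 18395 ND6 cells with a median of 1416 UMIs. The mtDNA limit alone removed 45.9% of the WT barcodes that had passed the other limits and 17.3% of the ND6 barcodes. The libraries shared 59 cell barcodes, 0.471% of the WT cells, where 33.9 would be expected from the length of the barcode list. Clusters formed without the 10 genes were named from marker genes, giving 9452 WT and 13161 ND6 rod-like cells, 608 and 1104 cone-like cells, 230 and 630 bipolar-like cells, and 116 and 397 amacrine-like cells. All 10 cone, 14 bipolar and 10 amacrine markers were highest in their own class in both libraries. Of 10 rod markers, 8 in WT and 6 in ND6 were highest in the rod-like cells, and the others were highest in the red blood cell-like cluster, which carried rod transcripts.

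Rod transcripts were also abundant in the other classes. Rod markers made up 5.96% of the UMIs of WT cone-like cells, 3.08% in bipolar-like cells and 3.03% in amacrine-like cells, against 7.55% in rod-like cells. Levels between classes are therefore given for rod-poor cells: cone-like cells with at most 2% rod-marker UMIs (125 WT and 191 ND6 cells), and bipolar-like cells (125 and 305) and amacrine-like cells (66 and 138) with at most 1%. Rod markers still made up 1.44% of the UMIs of rod-poor cone-like cells in WT and 1.41% in ND6. The shares left were 0.449% and 0.482% in bipolar-like cells and 0.322% and 0.368% in amacrine-like cells. These limits were set after the data were seen, and they cut a continuous range. Within 0.25 percentage points of the limit lay 38 WT and 63 ND6 cone-like cells, 29 and 73 bipolar-like cells, and 11 and 43 amacrine-like cells. For each class and library the UMIs of its cells were added up and expressed per 1000000 UMIs of that class (CPM), and every 95% interval below covers counting error only. No cluster was named Müller-like. In rod-poor amacrine-like cells Müller markers summed to 9234 CPM in WT and 3402 CPM in ND6, against 2760 and 3482 CPM for amacrine markers. At Leiden resolution 2, clusters of 607 WT and 654 ND6 cells and of 37 and 96 cells were named Müller-like, beside 82 and 307 amacrine-like cells. Amacrine-like levels below are those of a class that may include Müller glia.

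The first question was in which cells each gene was expressed. Among rod-poor cells, 5 of the 10 genes were highest in photoreceptors in each library: Cplx4 and Rims2 in rod-like cells, and Slc17a7, Cabp4 and Cacna1f in cone-like cells. Ctbp2 and Cacna2d4 were highest in bipolar-like cells in both libraries, and Bsn and Cplx3 in amacrine-like cells. Pclo was highest in bipolar-like cells in WT and in amacrine-like cells in ND6. The full order of the 4 classes was the same in both libraries for 7 genes, and the highest class was the same for 9. These orders were not matched for depth. Rod-like cells had medians of 1828 and 1353 UMIs in WT and ND6, against 5544 and 3528 in rod-poor cone-like cells. Rod-like levels of Ctbp2, Rims2, Pclo, Cacna1f and Cacna2d4 were highest in the deepest rod-like cells of both libraries. The part of depth in the orders was not tested.

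**Figure D1:**
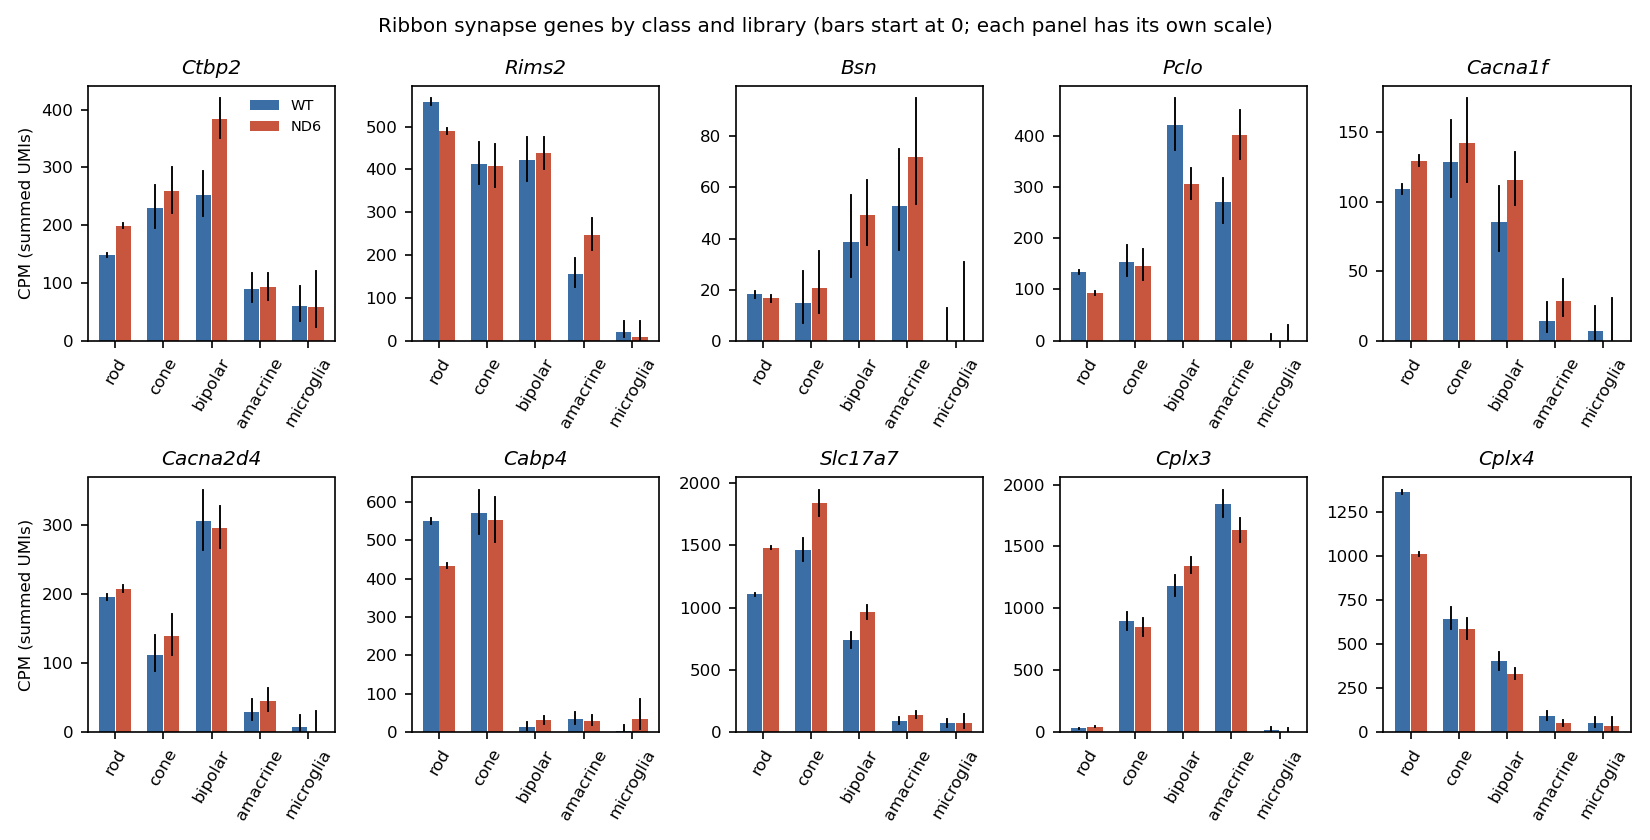
Level of each gene (vertical axis, CPM from summed UMIs, a separate scale per panel) in rod-like cells and in rod-poor cone-like, bipolar-like, amacrine-like and macrophage- or microglia-like cells, with WT in blue and ND6 in red. Bars start at 0 and black lines are exact 95% Poisson intervals. Cabp4 stands in photoreceptors (550 CPM in WT rod-like cells) and is near 0 elsewhere. Cplx3 is near 0 in rod-like cells (30.3 CPM) and high in cone-like, bipolar-like and amacrine-like cells.

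Among the 10, 4 genes build the ribbon and the active zone beneath it, and Ctbp2 makes the ribbon itself. The gene lies at chr7:132987563-133124354 on the minus strand (mm10, the GRCm38 assembly). From one start it encodes the transcriptional co-repressor CtBP2, and from an internal start it encodes RIBEYE, the main ribbon protein, whose longest annotated transcript has 988 codons against 445 for the main CtBP2 form. Both kinds of transcript end within the same stretch, so the 3′ tags counted here cannot tell them apart. RefSeq promoter windows on GRCm38.p6, 250 bases before to 50 bases after a start, were found for 6 of the 10 genes, and the 2 windows of Ctbp2 are shown because the readout cannot separate their products. The motif TAATCC, bound by the photoreceptor factor CRX, was searched on both strands as TAATCC or GGATTA and is in capitals.

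Ctbp2, window of an upstream start, chr7:133081811-133082110, minus strand: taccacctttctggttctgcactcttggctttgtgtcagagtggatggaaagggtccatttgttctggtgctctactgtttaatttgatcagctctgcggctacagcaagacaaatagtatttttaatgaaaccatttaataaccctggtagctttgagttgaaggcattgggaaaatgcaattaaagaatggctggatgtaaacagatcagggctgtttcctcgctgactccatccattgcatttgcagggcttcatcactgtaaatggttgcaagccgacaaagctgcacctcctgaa
Ctbp2, window at the RIBEYE start, chr7:133015198-133015497, minus strand: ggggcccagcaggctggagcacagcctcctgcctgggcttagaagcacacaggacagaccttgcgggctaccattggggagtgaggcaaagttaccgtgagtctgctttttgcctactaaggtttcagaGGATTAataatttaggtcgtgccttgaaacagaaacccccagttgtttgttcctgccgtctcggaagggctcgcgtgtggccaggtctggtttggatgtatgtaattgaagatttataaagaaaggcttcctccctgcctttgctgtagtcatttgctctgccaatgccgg
Cplx3, chr9:57606232-57606531, minus strand: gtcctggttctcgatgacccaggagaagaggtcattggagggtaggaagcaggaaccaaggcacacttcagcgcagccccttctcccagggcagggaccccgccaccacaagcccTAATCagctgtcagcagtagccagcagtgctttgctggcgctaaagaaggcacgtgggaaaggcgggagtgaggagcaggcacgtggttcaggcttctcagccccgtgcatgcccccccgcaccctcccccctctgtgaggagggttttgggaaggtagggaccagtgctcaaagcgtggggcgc
Cacna1f, chrX:7606853-7607152, plus strand: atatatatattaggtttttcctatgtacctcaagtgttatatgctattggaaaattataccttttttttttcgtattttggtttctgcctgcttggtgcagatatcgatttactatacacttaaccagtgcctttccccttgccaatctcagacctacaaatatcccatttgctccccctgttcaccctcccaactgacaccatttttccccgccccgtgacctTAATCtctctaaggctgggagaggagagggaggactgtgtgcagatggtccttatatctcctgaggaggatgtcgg

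The RIBEYE window held 1 GGATTA, starting 121 bases before the annotated start, and the upstream Ctbp2 window held none. Of all 32851 windows, 7.06% held this motif. In the Cplx3 and Cacna1f windows, shown beside it because they held only the shorter form GATTA or TAATC, the capitals mark that form. It begins 135 bases before the Cplx3 start and 26 bases before that of Cacna1f, it is contained in TAATCC, and 22.0% of all windows held it. The windows of Bsn, Pclo and Slc17a7 held neither form. A match of letters is a description and shows no binding.

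Ctbp2 was measured at 148 CPM (95% interval 144 to 153) in WT rod-like cells and at 199 CPM (195 to 204) in ND6 rod-like cells. Rod-poor cone-like cells held 231 CPM in WT and 259 CPM in ND6, and rod-poor bipolar-like cells held 253 CPM and 384 CPM. Cone-like cells thus exceeded rod-like cells 1.55-fold (1.32 to 1.82) in WT and 1.30-fold (1.10 to 1.51) in ND6, while bipolar-like and cone-like cells could not be separated in WT (1.10-fold, 0.87 to 1.37). Amacrine-like cells held 89.6 CPM and 92.2 CPM, near the 59.4 CPM and 58.7 CPM of rod-poor macrophage- or microglia-like cells, which have no ribbons. CtBP2 is made in many cell types, and its share in these values cannot be told apart from that of RIBEYE. Transcripts annotated to Fgfr2 overlap Ctbp2 on the same strand, so some reads could have been shared between the genes.

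Rims2 (chr15:39198261-39684372) encodes an active zone protein that ties vesicles to calcium channels. It stood at 558 CPM in WT rod-like cells and 489 CPM in ND6 rod-like cells. In rod-poor cone-like cells the levels were 412 and 407 CPM, and in bipolar-like cells 422 and 437 CPM. Cone-like and bipolar-like cells did not differ beyond counting error in either library (bipolar-like over cone-like, 1.02-fold, 0.86 to 1.21 in WT, and 1.08-fold, 0.93 to 1.25 in ND6). Amacrine-like cells were lowest of the 4 classes with 156 and 246 CPM, 3.57-fold below rod-like cells in WT (2.90 to 4.45) and 1.99-fold below in ND6 (1.71 to 2.32). Over all cone-like cells, rod-rich cells included, the level rose to 679 and 643 CPM, and Rims2 was then highest in that class.

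Bsn (chr9:108096022-108190384) and Pclo (chr5:14514918-14863459) encode Bassoon and Piccolo, giant scaffold proteins of active zones with and without ribbons, and Bassoon anchors the photoreceptor ribbon. Bsn was sparse, with 629 UMIs over all WT rod-like cells (18.1 CPM) and 577 UMIs in ND6 (16.6 CPM). It rose 2.91-fold (1.95 to 4.20) from rod-like to amacrine-like cells in WT, where it reached 52.7 CPM, and 4.33-fold (3.18 to 5.78) in ND6, where it reached 72.0 CPM. Bipolar-like cells held 38.8 and 49.0 CPM, and could not be separated from amacrine-like cells in WT (1.36-fold, 0.77 to 2.41) or in ND6 (1.47-fold, 0.99 to 2.17). Rod-poor macrophage- or microglia-like cells held no UMI of either gene among 286222 WT and 119317 ND6 UMIs, where 3 UMIs would give 10.5 and 25.1 CPM.

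Pclo was measured at 134 CPM in WT rod-like cells, 154 CPM in cone-like cells, 420 CPM in bipolar-like cells and 270 CPM in amacrine-like cells. In ND6 the same classes held 93.0, 147, 305 and 401 CPM. Bipolar-like cells exceeded rod-like cells to a similar extent in both libraries, 3.14-fold (2.77 to 3.55) and 3.28-fold (2.95 to 3.65). Amacrine-like cells exceeded rod-like cells 2.02-fold (1.71 to 2.37) in WT and 4.31-fold (3.80 to 4.87) in ND6. For both giant scaffold genes, rod-like and cone-like cells thus held the lowest levels of the 4 classes, within counting error of each other in WT (Bsn, rod-like over cone-like, 1.22-fold, 0.66 to 2.56; Pclo, cone-like over rod-like, 1.15-fold, 0.94 to 1.40).

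The calcium channel of the photoreceptor terminal is built from 3 of the genes. Cacna1f (chrX:7607083-7635196) encodes its pore, Cav1.4, Cacna2d4 (chr6:119236526-119352407) its α2δ4 subunit, and Cabp4 (chr19:4135423-4144033) a calcium-binding protein that shifts its opening to more negative voltages. Loss of any of them is known to cause inherited disorders of rod and cone signalling. Cacna1f stood at 109 and 129 CPM in WT and ND6 rod-like cells, 129 and 142 CPM in cone-like cells, and 85.3 and 116 CPM in bipolar-like cells. Among these 3 classes, neighbours in the order of levels did not differ beyond counting error in either library. The ends of the order lay further apart. In WT they were cone-like cells (103 to 159 CPM, 87 UMIs) and bipolar-like cells (64.2 to 111 CPM, 55 UMIs), so the 3 levels are not shown to be equal. Amacrine-like cells held 14.0 and 28.8 CPM, 7.77-fold (3.94 to 18.0) and 4.49-fold (2.90 to 7.36) below rod-like cells.

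Cacna2d4 followed another order. Bipolar-like cells held the most, 305 CPM in WT and 296 CPM in ND6, followed by rod-like cells with 196 and 208 CPM, cone-like cells with 112 and 139 CPM, and amacrine-like cells with 29.8 and 44.7 CPM. Each step in this order exceeded counting error in both libraries, from 1.42-fold (1.28 to 1.58, bipolar-like over rod-like in ND6) to 3.76-fold (2.20 to 6.79, cone-like over amacrine-like in WT). Lrtm2 lies inside Cacna2d4 on the opposite strand.

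Cabp4 set photoreceptors apart from bipolar-like and amacrine-like cells. Rod-like cells held 550 CPM in WT and 434 CPM in ND6, and cone-like cells 572 and 552 CPM. The cone-like and rod-like levels did not differ beyond counting error in WT (1.04-fold, 0.94 to 1.15), and in ND6 the cone-like level was 1.27-fold (1.14 to 1.41) higher. Bipolar-like cells held 14.0 CPM (9 UMIs) and 31.6 CPM (40 UMIs), and amacrine-like cells 33.4 and 28.8 CPM. The cone-like level was 41.0-fold (21.4 to 90.3) above the bipolar-like level in WT and 17.4-fold (12.5 to 24.8) above it in ND6. Rod-poor macrophage- or microglia-like cells held 3.49 CPM (1 UMI, 0.0885 to 19.5) in WT and 33.5 CPM (4 UMIs, 9.13 to 85.8) in ND6. The bipolar-like values could not be separated from these in either library, nor could the amacrine-like value in ND6, whereas the WT amacrine-like value was 9.55-fold higher (1.52 to 397, on 1 UMI in the lower class). Over all bipolar-like cells, with the rod-rich ones included, Cabp4 read 235 and 202 CPM.

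Vesicle filling and fusion are served by the last 3 genes. Slc17a7 (chr7:45163949-45176142) encodes VGLUT1, which loads glutamate into vesicles. Cone-like cells held 1462 CPM (1372 to 1556) in WT and 1837 CPM (1733 to 1946) in ND6, and rod-like cells 1105 and 1479 CPM. Bipolar-like cells followed with 738 and 963 CPM. Amacrine-like cells, whose transmitters are mostly not glutamate, held 93.1 and 141 CPM, 11.9-fold (9.07 to 15.9) and 10.5-fold (8.59 to 12.9) below rod-like cells. These amacrine-like levels were not separable from the 69.9 and 75.4 CPM of macrophage- or microglia-like cells (1.33-fold, 0.78 to 2.35, and 1.87-fold, 0.95 to 4.22).

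Cplx3 (chr9:57599992-57606281) and Cplx4 encode complexins 3 and 4, which bind the SNARE fusion complex at ribbon synapses and hold back unprompted fusion. They were opposite in their distribution. Cplx4 fell stepwise from rod-like cells (1364 CPM in WT, 1012 CPM in ND6) over cone-like cells (644 and 587 CPM) and bipolar-like cells (403 and 333 CPM) to amacrine-like cells (93.1 and 50.4 CPM). Cplx3 rose from rod-like cells (30.3 and 45.0 CPM) over cone-like cells (899 and 848 CPM) and bipolar-like cells (1182 and 1345 CPM) to amacrine-like cells (1844 and 1632 CPM). Every step of both orders exceeded counting error in both libraries. The share of rod-marker UMIs fell in the same order as Cplx4, and the part of leftover rod RNA in its levels outside rod-like cells was not tested.

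Cone-like cells held 29.7-fold (26.8 to 32.9) more Cplx3 than rod-like cells in WT and 18.9-fold (17.1 to 20.8) more in ND6. The rod-like level was below that of free RNA, taken from barcodes with 10 to 100 UMIs, which held 159 CPM in WT and 362 CPM in ND6. With every cell thinned to 400 UMIs, 1.48% of WT and 2.40% of ND6 rod-like cells had a Cplx3 UMI, against 31.2% and 24.6% of cone-like cells and 0 of 80 and 0 of 39 rod-poor macrophage- or microglia-like cells, where 3 cells with a UMI would be 3.75% and 7.69% and the exact 95% upper limits of the share of cells with a UMI are 4.51% and 9.03%. Before thinning the rod-like shares were 8.97% and 10.2%, at median depths of 1828 and 1353 UMIs. In rod-poor macrophage- or microglia-like cells, Cplx3 before thinning was found in 6.25% of WT cells at a median of 1996 UMIs, so the rod-like level in WT, 1.44-fold (0.66 to 3.94) above theirs, was not separable from background. In ND6 the same cells held no Cplx3 UMI, where 3 UMIs would give 25.1 CPM, and the rod-like level of 45.0 CPM (42.8 to 47.3) was above the upper limit of 30.9 CPM that this count allows. Another class without ribbons gave a higher background. Rod-poor retinal pigment epithelium-like cells held 31.5 CPM (20.9 to 45.5) in WT and 41.1 CPM (26.3 to 61.1) in ND6. The ND6 rod-like level lay within that interval, so it did not stand above every background.

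Bipolar and amacrine subtypes differed in their complexins. Rod-poor cells were assigned to a subtype by a few marker UMIs, which gave 45 WT and 38 ND6 rod bipolar cells, 36 and 113 ON cone bipolar cells, 16 and 66 OFF cone bipolar cells, 32 and 42 glycinergic amacrine cells, and 4 and 15 GABAergic amacrine cells. The needed number of UMIs was fixed, so these counts depend on depth. Rod-poor bipolar-like cells had a median of 4625 UMIs in WT and 3590 UMIs in ND6. Cplx4 was highest in ON cone bipolar cells, with 918 CPM in WT and 509 CPM in ND6, against 145 and 196 CPM in OFF cone bipolar cells and 118 and 168 CPM in rod bipolar cells. On the log2 scale, ON cone bipolar cells exceeded OFF cone bipolar cells by 2.66 (1.74 to 3.76) in WT and by 1.37 (0.90 to 1.88) in ND6. Cplx3 was lower in ON than in OFF cone bipolar cells, 815 against 1216 CPM in WT and 1199 against 1498 CPM in ND6.

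Glycinergic amacrine cells, marked by the glycine transporter gene Slc6a9, held the most Cplx3 of the 5 subtypes, 2941 CPM (2733 to 3161) in WT and 2357 CPM (2166 to 2560) in ND6. GABAergic amacrine cells held 1166 and 1172 CPM, lower by 1.34 (0.87 to 1.84) and 1.01 (0.73 to 1.30) on the log2 scale. Slc17a7 and Ctbp2 were higher in OFF cone bipolar than in rod bipolar cells in both libraries. The differences in WT were 1057 against 507 CPM for Slc17a7 and 420 against 213 CPM for Ctbp2, and in ND6 1215 against 718 CPM and 452 against 317 CPM.

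**Figure D2:**
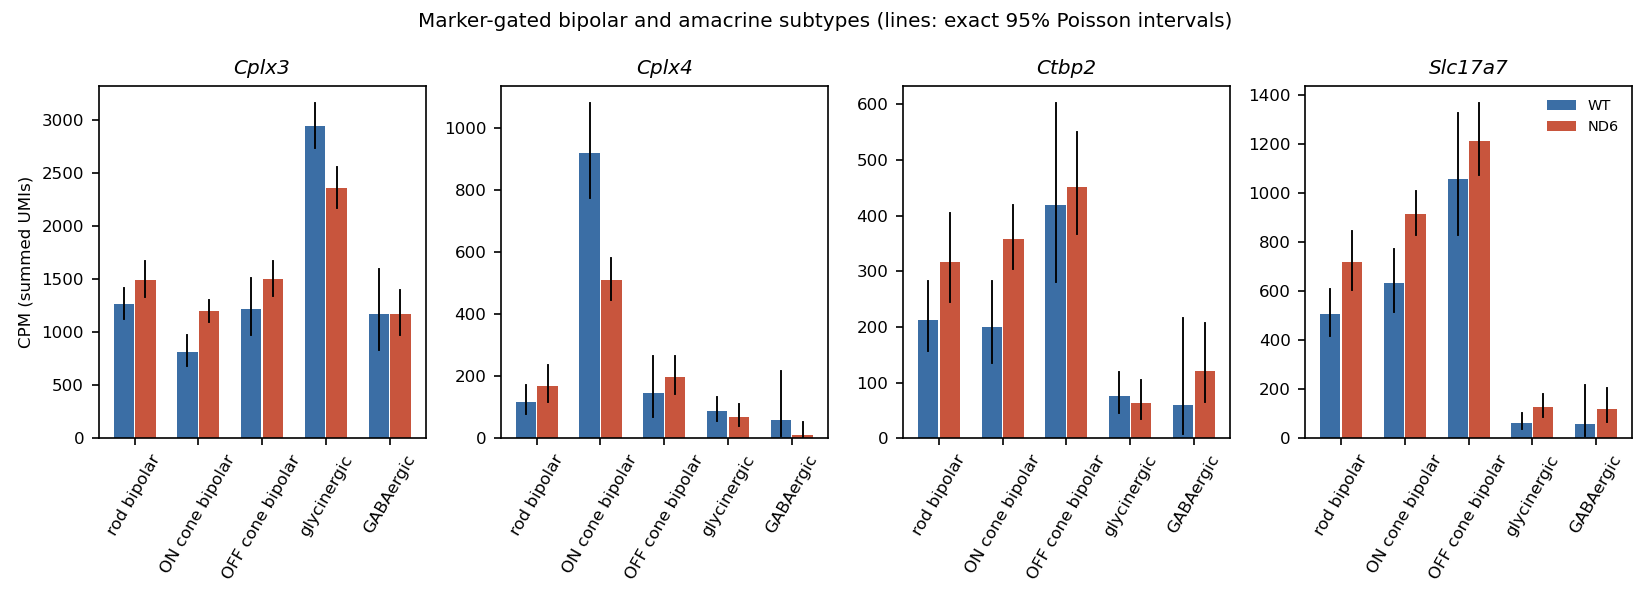
Level (vertical axis, CPM from summed UMIs, a separate scale per panel) of Cplx3, Cplx4, Ctbp2 and Slc17a7 in marker-gated subtypes of rod-poor bipolar-like and amacrine-like cells, with WT in blue and ND6 in red and black lines for exact 95% Poisson intervals. Cplx3 is highest in glycinergic amacrine cells (2941 and 2357 CPM) and Cplx4 in ON cone bipolar cells (918 and 509 CPM).

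The second question was how the genes differed between the libraries. In rod-like cells, 5 of the 10 genes were higher in ND6 and 5 were lower, and the median log2 ratio of ND6 over WT was -0.02, against 0.02 over all 13458 genes with at least 20 UMIs. All 10 genes had at least 20 UMIs in each of the 4 classes. A difference of at least 0.5 on the log2 scale, in either direction, was used as a mark of size. Of the 10 genes 1 was past it upward, where 19.7% of all genes were, and 1 downward, where 8.03% were. A count of 1 in 10 is near these shares of all genes.

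**Figure D3:**
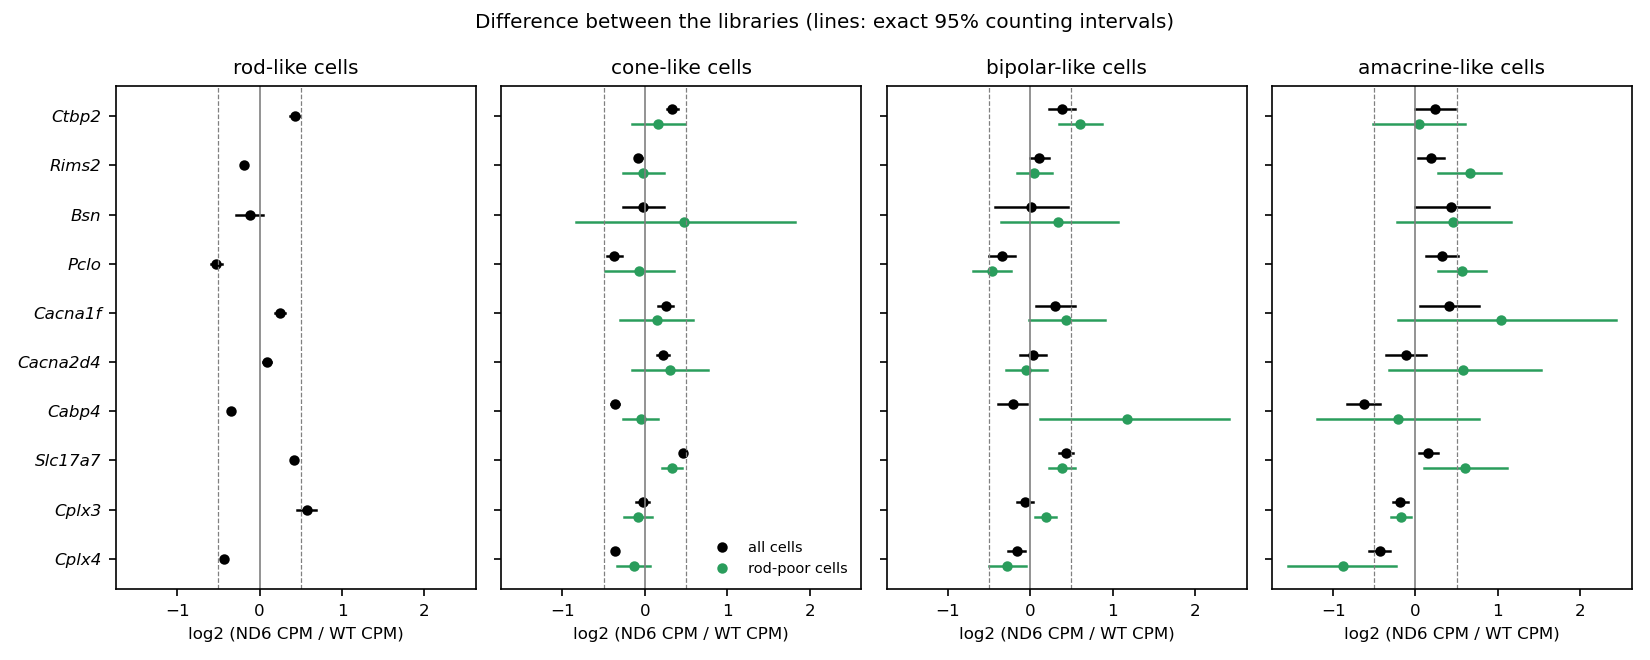
Log2 ratio of ND6 CPM over WT CPM (horizontal axis) for each gene in the 4 classes, over all cells of the class (black) and over rod-poor cells (green), with exact 95% counting intervals and dashed lines at 0.5 on either side. In rod-like cells Cplx3 (0.57) and Pclo (-0.52) lie past the dashed lines, and in cone-like cells no gene does.

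Of the ribbon and active zone genes in rod-like cells, Ctbp2 was higher in ND6, with a log2 ratio of 0.43 (0.37 to 0.48). Pclo was lower, at -0.52 (-0.59 to -0.46), and Rims2 slightly lower, at -0.19 (-0.22 to -0.16). Bsn did not differ beyond counting error, at -0.12 (-0.29 to 0.04).

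The channel genes were also mixed. The log2 ratio in rod-like cells was 0.25 (0.18 to 0.31) for Cacna1f, 0.09 (0.04 to 0.14) for Cacna2d4 and -0.34 (-0.37 to -0.31) for Cabp4. The pore gene was therefore higher and the gene for its binding partner lower in ND6, on the scale of all rod UMIs.

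Among the vesicle genes, Slc17a7 was higher in ND6 rod-like cells by 0.42 (0.40 to 0.44), and Cplx4 was lower, at -0.43 (-0.45 to -0.41). Free RNA differed in the same direction, from 800 to 1164 CPM for Slc17a7 and from 920 to 704 CPM for Cplx4. It did not do so for every gene, with 256 and 383 CPM for Rims2 and 155 and 152 CPM for Ctbp2. Slc17a7 was also higher in ND6 over all retinal pigment epithelium-like (0.76), red blood cell-like (0.51) and macrophage- or microglia-like cells (0.56). Cplx3 had the largest ratio of the 10 genes, 0.57 (0.46 to 0.69), at a level of 30.3 CPM in WT and 45.0 CPM in ND6. Markers of most other cell types were also higher in ND6 rod-like cells. Summed, the 10 cone markers went from 151 to 279 CPM, the 14 bipolar markers from 171 to 274 CPM and the 10 amacrine markers from 28.3 to 48.3 CPM, each marker being higher, and so were all 8 Müller, 7 ganglion cell, 4 horizontal cell and 4 endothelial markers. None of these was at 0. Macrophage or microglia markers were higher in 6 of 7 and red blood cell markers in 3 of 4. Retinal pigment epithelium markers went the other way, from 91.2 to 74.0 CPM, with 5 of 6 lower and Best1 at 0 in WT. The part of RNA from other cells in the Cplx3 ratio was not tested. With the expected free RNA subtracted, an estimated 5.23% of WT and 8.55% of ND6 rod-like UMIs, the Cplx3 ratio turned to -0.64.

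The direction of the ratio was the same at every depth for some genes and not for others, and its size also varied. Rod-like cells were split into 4 ranges of UMIs per cell, with limits at 1000, 2000 and 5000 UMIs. Ctbp2 was higher in ND6 in all 4 ranges, by 1.27 (0.86 to 1.71) in the shallowest and 0.41 (0.35 to 0.48) in the deepest, and so were Cacna1f, Cacna2d4, Slc17a7 and Cplx3. Cabp4 and Cplx4 were lower in all 4. Pclo had log2 ratios of 0.49 (-0.14 to 1.16), 0.22, -0.31 (-0.46 to -0.16) and -0.50 (-0.58 to -0.42) from shallow to deep. Rims2 likewise ran from 0.23 (0.01 to 0.45) to -0.16 (-0.19 to -0.12). Both genes were thus lower in ND6 in the deepest cells and not in those with 2000 UMIs or fewer.

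Within the 7 rod-like clusters, Ctbp2, Cacna1f, Slc17a7 and Cplx3 were higher in ND6 in all 7, and Cabp4 and Cplx4 lower in all 7. Pclo was lower in ND6 in 3 clusters and Rims2 in 2. The clusters differed more from each other than the libraries did for the large active zone genes. Between the lowest and the highest cluster, Pclo spanned 7.66-fold in WT and 5.34-fold in ND6, and Cplx4 spanned 1.41-fold and 1.51-fold. Clusters rich in Malat1, a long RNA kept in the nucleus, held the most Pclo and Rims2. In the shallowest rod-like cells Malat1 was 9884 CPM in WT and 16486 CPM in ND6, and in the deepest 42529 and 34169 CPM. Whether this had a part in the Pclo, Rims2 and Ctbp2 ratios was not tested.

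**Figure D4:**
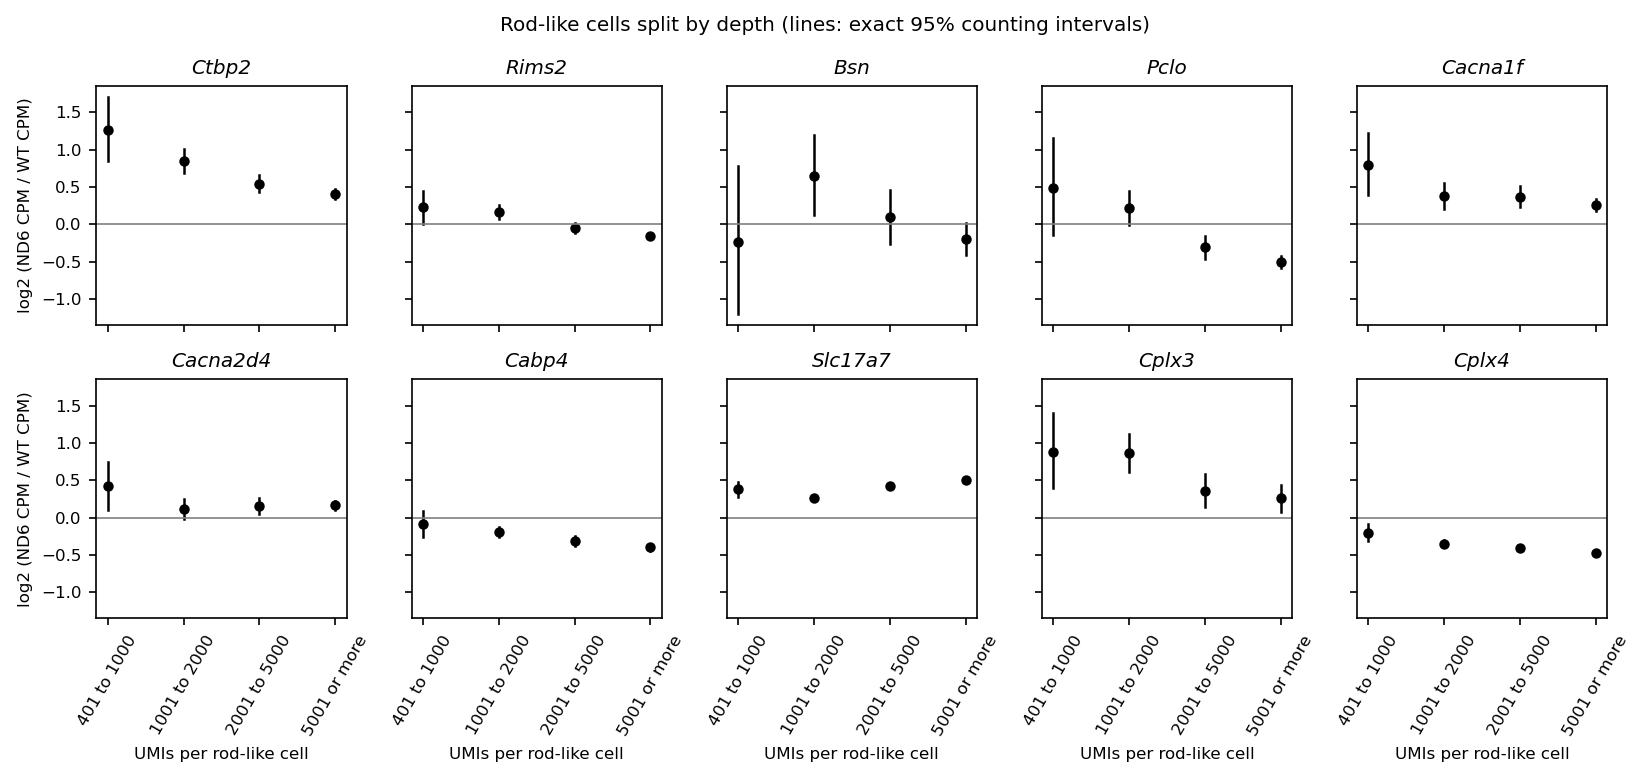
Log2 ratio of ND6 CPM over WT CPM (vertical axis) in rod-like cells split by UMIs per cell (horizontal axis), 1 panel per gene, with exact 95% counting intervals. The points of Cplx4 and Cabp4 lie below 0 and those of Ctbp2 and Slc17a7 above 0 in every range, whereas Pclo passes from 0.49 in the shallowest to -0.50 in the deepest cells. The shallowest Cabp4 interval reaches past 0.

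For most genes, cone-like cells gave log2 ratios near those of rod-like cells. Over all cone-like cells none of the 10 genes was past 0.5, against 12.1% of all genes upward and 7.91% downward, and the median was -0.02. Slc17a7 (0.46, 0.43 to 0.49), Ctbp2 (0.33, 0.26 to 0.41) and Cacna1f (0.25, 0.16 to 0.34) were higher in ND6, and Pclo (-0.37, -0.46 to -0.28), Cabp4 (-0.37, -0.42 to -0.32) and Cplx4 (-0.36, -0.39 to -0.32) were lower. These cells held rod transcripts. In rod-poor cone-like cells the only interval that excluded 0 was that of Slc17a7 (0.33, 0.21 to 0.45), 0 of 10 genes were past 0.5 against 14.7% of all genes upward and 11.6% downward, and Cplx4 and Cabp4 stood at -0.14 (-0.34 to 0.07) and -0.05 (-0.26 to 0.16).

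In bipolar-like cells none of the 10 genes was past 0.5, against 16.7% of all genes upward and 6.97% downward. Ctbp2 was higher in ND6 by 0.38 (0.23 to 0.54) and Slc17a7 by 0.44 (0.35 to 0.52), and Pclo was lower, at -0.34 (-0.50 to -0.18). The same 3 genes kept these directions in rod-poor bipolar-like cells, with 0.60 (0.35 to 0.87), 0.38 (0.23 to 0.54) and -0.46 (-0.69 to -0.23). There, Ctbp2 and Cabp4 were past 0.5 upward, 2 of 10 against 21.7% of all genes, the latter on 9 WT and 40 ND6 UMIs, and none was past it downward, against 8.44%. Marker RNA of Müller glia was 495 CPM in WT and 2328 CPM in ND6 rod-poor bipolar-like cells, with all 8 markers higher in ND6 and Kcnj10 at 0 in WT. By marker limits that depend on depth, the subtypes also differed in number, with rod bipolar cells 45 of 125 in WT and 38 of 305 in ND6 and OFF cone bipolar cells 16 and 66. The part of neither in these ratios was tested.

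Amacrine-like cells differed more. Over all of them, Cabp4 was past 0.5 downward (-0.63, -0.83 to -0.43), 1 of 10 against 12.6% of all genes, and none upward against 15.6%. Among rod-poor amacrine-like cells 5 genes were past 0.5 upward, against 22.2% of all genes, and 1, Cplx4 (-0.88, -1.54 to -0.24), downward, against 15.0%. Of the 5, the intervals of Rims2 (0.66, 0.28 to 1.04), Pclo (0.57, 0.28 to 0.86) and Slc17a7 (0.60, 0.10 to 1.11) excluded 0, and those of Cacna1f and Cacna2d4, with 28 and 48 UMIs in all, did not. In rod-poor macrophage- or microglia-like cells Cplx4 stood at 52.4 CPM (29.3 to 86.4) in WT and 33.5 CPM (9.13 to 85.8) in ND6. Its amacrine-like levels, 93.1 CPM (69.7 to 122) and 50.4 CPM (35.1 to 70.1), had intervals that overlapped these. Slc17a7 was likewise not separable from that class in rod-poor amacrine-like cells. Cplx3, the most abundant of the genes in these cells, was lower in ND6 at -0.18 (-0.30 to -0.05). Müller markers were 9234 CPM in WT and 3402 CPM in ND6, with all 8 lower and none at 0. RPE (retinal pigment epithelium) markers were 47.4 and 357 CPM, with all 6 higher and Lrat and Best1 at 0 in WT, and endothelial markers 434 and 153 CPM, with Cldn5 and Pecam1 at 0 in both. Ganglion cell markers were 2235 and 1402 CPM, with 5 of 7 lower and none at 0, and cone markers 65.0 and 305 CPM, with 9 of 10 higher and Gnat2, Cnga3 and Cngb3 at 0 in WT. The part of this makeup in the ratios was not tested.

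Other genes of the same synapse were taken from lists, with at most 4 named per list, the 2 highest in rod-like cells and the 2 with the largest ratios there among genes with at least 100 UMIs. Of 14 further active zone genes, all with at least 20 UMIs in rod-like cells, 4 were at least 0.5 higher in ND6 (19.7% of all genes were), none was lower by as much (8.03% were), and the median was 0.11. The 2 highest in rod-like cells were Unc119, which encodes a carrier of transducin that is also found at ribbons (log2 ratio -0.33, -0.34 to -0.32), and Tulp1, a protein of photoreceptor terminals and inner segments (0.12, 0.10 to 0.13). Those with the largest ratios among genes with at least 100 UMIs were the RIM1 gene Rims1 (1.13, on 37 WT and 81 ND6 UMIs) and the liprin gene Ppfia3 (0.49, on 235 and 329 UMIs).

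For calcium entry and clearance, 5 of 12 genes were at least 0.5 higher in ND6 rod-like cells (19.7% of all genes were) and none lower (8.03% were), with a median of 0.34. The abundant plasma membrane calcium pump gene Atp2b1 differed little (0.12, 0.09 to 0.14). The pump gene Atp2b2 (2.25) and the channel subunit gene Cacnb3 (1.14) had the largest ratios among genes with at least 100 UMIs, on 37 and 36 WT UMIs. Vesicle and fusion genes gave 8 of 20 at least 0.5 higher, against the same 19.7% of all genes, none lower, against 8.03%, and a median of 0.30. Syt1, the fast calcium sensor of fusion in many neurons, was at 772 CPM in WT and 777 CPM in ND6, and Stx3, the syntaxin of ribbon synapses, at 682 and 734 CPM. The sparse vesicle gene Sv2c had a log2 ratio of 2.01. Markers of cone, bipolar, amacrine, Müller and ganglion cells were also higher in these ND6 rod-like cells. The part of such RNA in the calcium and vesicle gene ratios was not tested.

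Genes of the terminal and the cleft gave 1 of 12 higher and 2 lower by at least 0.5, against 19.7% and 8.03% of all genes. The scaffold gene Mpp4 (-0.05, -0.08 to -0.02) and the dystrophin gene Dmd (-0.20, -0.23 to -0.17) were the highest in rod-like cells. Lrit3, which rods need to assemble the receptors of the opposite bipolar dendrite, fell by 1.00 on the log2 scale, from 14.8 to 7.41 CPM, on 516 WT and 257 ND6 UMIs. Elfn2, with 18 and 88 UMIs, was higher by 2.29.

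The last list holds postsynaptic genes of ON bipolar cells, which serve the dendrite opposite the photoreceptor terminal. In rod-like cells all 5 that had at least 20 UMIs and are no markers were at least 0.5 higher in ND6, against 19.7% of all genes, such as Gnao1 (21.8 to 31.4 CPM), and the markers Trpm1 (1.67 to 10.4 CPM) and Grm6 (0.66 to 3.14 CPM) were as well. Within bipolar-like cells, where they work, Trpm1 was lower in ND6, from 1422 to 882 CPM (-0.69, -0.77 to -0.61), and Gnao1 from 705 to 504 CPM (-0.48, -0.59 to -0.38). In rod-poor bipolar-like cells Trpm1 kept that direction (-0.54, -0.64 to -0.44). The summed bipolar markers, Trpm1 among them, were also lower there, at 16435 CPM in WT and 13188 CPM in ND6. Rod bipolar cells, which express Trpm1, made up 38 of 305 rod-poor bipolar-like cells in ND6 and 45 of 125 in WT, by marker limits that depend on depth. The part of this makeup, and of the lower sum of bipolar markers, in the Trpm1 and Gnao1 ratios was not tested.

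Across 7 named classes in both libraries (14 points, which share libraries, depth and rod RNA), the genes fell into groups by likeness of log2(CPM + 1). The highest Pearson r between any pair was 0.94 for Cplx4 with Cabp4, followed by 0.94 for Cacna1f with Cacna2d4, and the lowest was -0.30 for Cplx3 with Cabp4. Cplx3 was most like Bsn (0.85) and Pclo (0.82). Among 10030 genes with at least 500 UMIs, those most like the mean of the 10 genes were Negr1 (0.98), Homer1 (0.98), Armh3 (0.97), the synaptic vesicle gene Syp (0.97) and Nsf (0.97), which encodes the ATPase that takes SNARE complexes apart. Syp stood at 318 CPM in WT and 346 CPM in ND6 rod-like cells.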

How the data were processed

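The authors aligned the 3′ reads of both libraries to mm10 with Cell Ranger 3.0.2, per the submitters' processing notes, and deposited raw UMI counts per gene and barcode without normalization. The matrices hold 77958836 WT and 80358255 ND6 UMIs over all barcodes. The limits on UMIs, genes and mtDNA share are those of the study's methods. Its regression and integration steps were not repeated.

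Cells of both libraries were clustered together (scanpy 1.11.5, 3000 variable genes, 30 principal components, 20 neighbours, Leiden resolution 1) without mtDNA-encoded genes, the 10 genes and the related lists. A cluster was named where, against all other clusters, it had at least 3 raised markers and its 10 leading genes held fewer markers of each other class. Clusters still unnamed were then compared only with the named clusters other than photoreceptors, by the same rule for rod markers. Every rod-like cluster was named in this way. Scrublet's threshold marked 0 WT cells and 1 ND6 cell, so it did not work and doublets were kept. UMI counts were summed per class and library. Poisson, Clopper-Pearson and conditional intervals are exact, at 95%, and UMIs limit them to counting error. With 1 library per genotype there was no test. The code for ratios was tested on simulated data. All 10 genes were named. Of each related list, the 2 highest in rod-like cells and the 2 with the largest ratio there among genes with at least 100 UMIs were named, as were the 5 genes most like the mean of the 10. Some genes that this rule names are not reported here. Subtypes needed at least 3 UMIs of the rod bipolar markers or 2 of the others. The genes, lists and limits were chosen with earlier results of these data known. Alternatives concerned the cells kept, their naming, the scaling, doublets, free RNA and depth.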

Additional observations from a re-analysis of the deposited data

Results flagged for a closer look

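For 3 of the 10 genes, all cells of one class stood on opposite sides of 0 from those of another, with counting intervals that excluded 0 in both. These differences between classes were not tested, since each genotype had 1 library. Pclo, the Piccolo gene, was higher in ND6 in amacrine-like cells (0.32) and lower in the other 3 classes. Its log2 ratio in amacrine-like cells exceeded that in rod-like cells by 0.848, in cone-like cells by 0.696 and in bipolar-like cells by 0.664. Rims2 was higher in ND6 amacrine-like cells, and its ratio exceeded that in rod-like cells by 0.382 and that in cone-like cells by 0.271. For Cplx3 the difference, amacrine-like minus rod-like, was -0.76. Rod-poor amacrine-like cells kept the sign for Pclo (0.57), Rims2 (0.66) and Cplx3 (-0.18). Other settings removed the opposite signs. In amacrine-like cells Pclo turned to -0.13 with markers counted cell by cell, Rims2 to -0.0066 and Cplx3 to 0.057 without the highest 10% of doublet scores, and Rims2 to -0.0027 with free RNA subtracted. In rod-like cells with more than 1000 and up to 2000 UMIs, Pclo stood at 0.22 and Rims2 at 0.17, Rims2 was 0.0046 without the mtDNA limit, and Cplx3 was -0.64 with free RNA subtracted. Müller markers fell in the same rod-poor cells from 9234 to 3402 CPM, and their part in these differences was not tested.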

How the results depend on the processing

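No paired analysis was possible because each genotype had 1 library. The number of genes highest in photoreceptors was 5 in WT under every alternative run, and in ND6 it was 3 with per-cell means. In rod-like cells the median log2 ratio became 0.13 without the mtDNA limit, 0.14 with per-cell means, -0.075 without the highest 10% of doublet scores, -0.30 with free RNA subtracted and 0.24 in cells with more than 1000 and up to 2000 UMIs, where Pclo reversed to 0.22. With at least 1000 UMIs per cell, 1 gene was past 0.5 in place of 2. Cplx3 in rod-like cells reversed to -0.64 with free RNA subtracted. Cabp4 in amacrine-like cells reversed to 0.060 with per-cell means and to 0.35 at Leiden resolution 2. Medians with per-cell means were 0.056 in cone-like, 0.26 in bipolar-like and 0.44 in amacrine-like cells, and in rod-poor cells, an alternative chosen after seeing the data like that range of depth, they were 0.061, 0.26 and 0.51. Cells thinned to 400 UMIs gave 0.24 in bipolar-like and 0.48 in amacrine-like cells, resolution 2 gave 0.14 in cone-like and 0.42 in amacrine-like cells, and free RNA subtracted gave -0.46 in cone-like cells, where the estimate reached its ceiling of 100%. Genes past 0.5 in amacrine-like cells numbered 3 without the mtDNA limit, 2 with cell-by-cell markers, 5 with per-cell means, 2 without high doublet scores, 5 at resolution 2, 4 with free RNA subtracted, 5 when thinned and 6 in rod-poor cells. In bipolar-like cells they numbered 2, with per-cell means or in rod-poor cells, 1 without high doublet scores, and 3 with free RNA subtracted or when thinned. In cone-like cells they numbered 6 with free RNA subtracted and 1 when thinned. The causes were not tested. Ctbp2, Slc17a7, Cabp4 and Cplx4 kept their direction in rod-like cells under all 10 alternatives, as did Cacna1f. Depth limited Bsn, whose largest class sum was 629 UMIs.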
